A study of Homo sapiens with 16 samples.

Results

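The comparison reported here asks whether formoterol changed gene expression differently in liver cells loaded with fatty acids than in cells without them. The cells were HepaRG, a human liver tumour line that, once differentiated, holds cells resembling hepatocytes beside cells resembling bile duct epithelium. All 16 of the 16 libraries entered the comparison, 4 in each of 4 groups, and 18121 of the 58735 listed genes had enough counts to be tested. The combination group received formoterol at 30 nM together with palmitic acid at 0.25 mM and oleic acid at 0.5 mM. The fatty acid group received the same mixture of acids alone, and the formoterol group received the same dose of formoterol alone. The control group received the vehicle, given in the labels as 1% bovine serum albumin. Whether the other 3 groups were given albumin as well is not stated in the sources used here. Every group was kept for 3 days of treatment, with medium changed daily, in a medium that also held 2% DMSO, serum, insulin and the glucocorticoid triamcinolone acetonide. The labels describe the 4 libraries of a group as independent replicates without saying that they came from separate cultures of this 1 line, so p-values measure the spread between these libraries, which may be technical.

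Formoterol is a long-acting agonist of the beta2-adrenergic receptor. That receptor couples through the stimulatory G protein to adenylyl cyclase, and the resulting cAMP activates protein kinase A and the transcription factor CREB, which in hepatocytes drives genes of glucose production and amino acid breakdown. Palmitic and oleic acid are among the main fatty acids taken up by liver cells; they are burnt, stored as triglyceride in lipid droplets, and act as ligands of the PPAR nuclear receptors, which switch on genes of fatty acid oxidation and ketone body synthesis.

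Each gene's interaction is the log2 fold change of formoterol in the presence of fatty acids minus the log2 fold change of formoterol in their absence. A positive value means that formoterol moved the gene further upward, or less far downward, with fatty acids present; a negative value means the opposite. Because the scale is logarithmic, a value of 0 stands for 2 treatments whose effects multiply. Levels are given as CPM (read counts scaled to a common library size), interactions and fold changes as log2 values ± SE, and adjusted p-values are from edgeR's quasi-likelihood test with Benjamini-Hochberg adjustment over all genes tested, called at 0.05.

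Library totals ran from 32471299 to 65673126 counts. Combination replicate 2 lay far from its group: on the second principal component, which held 12.3% of the variance, it lay at 34.1, while the other 3 lay between -23.4 and -1.94. Control replicate 3, at 41.9, was the farthest control library in the same direction, the other 3 controls lying between 23.1 and 32.5. The mean log2 level of 21 hepatocyte markers, relative to the control mean, was -0.87 in combination replicate 2, against 0.58, 0.74 and 0.62 in combination replicates 1, 3 and 4, and it was -0.28 in control replicate 3, against 0.04, 0.15 and 0.09 in the other control libraries. Results are therefore given with all 16 libraries and without combination replicate 2, and without control replicate 3 where that changes a call. Albumin, the defining product of hepatocytes, stood at 9823 CPM or more in every library. The endothelial gene CDH5, the leukocyte gene TYROBP and the fibroblast gene COL1A2 were listed at 0 in all 16, and so was the biliary gene EPCAM. Other markers of each of these cell types were measured. Scaled to total counts, endothelial KDR ran from 34.1 to 170 CPM, leukocyte LAPTM5 from 24.1 to 51.2 CPM and fibroblast DCN from 313 to 716 CPM. Biliary KRT19 ran from 47.3 to 180 CPM. The genes at 0 therefore do not show that a cell type was absent.

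With all 16 libraries 997 genes (5.50% of those tested) had an interaction past the threshold. In 613 of them (3.38%) it was negative and in 384 (2.12%) positive. Without combination replicate 2, 1026 of 18517 genes (5.54%) passed, 667 (3.60%) negative and 359 (1.94%) positive. The fits with and without it shared 869 calls, all with the same sign, 548 negative and 321 positive, which is 87.2% of the calls with all 16 libraries and 84.9% of the calls without the library among genes tested in both fits. Among the 997 genes the median size of the interaction was 0.61 on the log2 scale, and 257 reached at least 1, which corresponds to a 2-fold difference between formoterol's effects.

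The number of genes called depended on single libraries, and control replicate 3 mattered most. Without it 444 genes passed, 170 positive and 274 negative. Fewer genes by more than 1.5 times were also called without formoterol replicate 4 (585), fatty acid replicate 1 (604), control replicate 4 (640) or fatty acid replicate 3 (653), and 404 negative interactions were called without formoterol replicate 3. With control replicate 3 and combination replicate 2 both left out, 759 genes were called, 265 positive and 494 negative. Of the 997 genes, 411 (41.2%) were called in each of the 16 fits that left out 1 library. For a called gene described below that was lost without control replicate 3, the number of those 16 fits in which it was called is given, unless it was 15 and control replicate 3 was the only library on which the call depended. Scaling by total counts moved the median interaction of all genes from 0.01 to 0.17 on the log2 scale and raised the positive share of the calls to 74.6%, against 38.5% with the scaling used here. Under that scaling the medians of the gene groups described below kept their sign, except those of NRF2 target genes, beta-adrenergic signalling, the nuclear-encoded respiratory chain, activins and leukocyte markers.

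**Figure D1:**
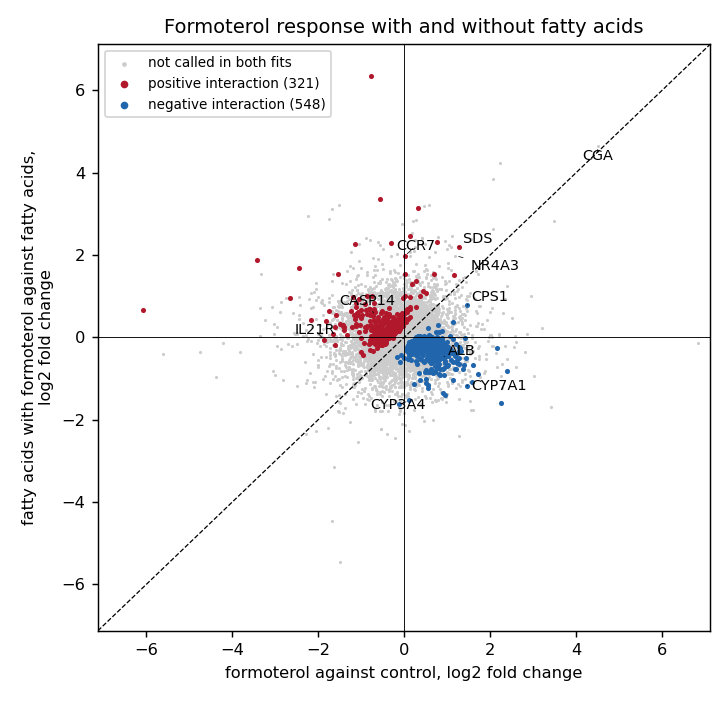
Each point is 1 of the 18121 genes tested. The horizontal axis is the log2 fold change of formoterol against control, the vertical axis the log2 fold change of fatty acids plus formoterol against fatty acids, and the dashed line marks equal folds. Genes called with and without combination replicate 2 are coloured, 321 positive in red above the line and 548 negative in blue below it; most blue points lie right of 0 on the horizontal axis and most red points left of 0.

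Read along formoterol, most of these interactions took 1 form. An effect of formoterol was present in cells without fatty acids and small or turned round in cells with them. Of the 997 genes, 889 had formoterol folds of opposite sign in the 2 settings, 73 had folds of the same sign that were smaller with fatty acids, and 35 had folds of the same sign that were larger with fatty acids. Taken singly, formoterol's effect passed the threshold only without fatty acids in 655 of them, only with fatty acids in 106, in both settings in 45 and in neither in 191. In 29 of those 45 genes the 2 effects went in opposite directions. Without combination replicate 2, 1023 of the genes called were also among those tested with all libraries. Of these, 805 had folds of opposite sign, 172 had folds of the same sign that were smaller with fatty acids and 46 had folds of the same sign that were larger with them. Formoterol's effect then passed only without fatty acids in 743, only with them in 106, in both settings in 68 and in neither in 106. In 38 of those 68 genes the 2 effects went in opposite directions. Among the negative genes alone, 107 had a smaller fold of the same sign with fatty acids without that library, against 22 with all libraries. The 613 genes with a negative interaction had a median formoterol fold of -0.23 with fatty acids and 0.42 without, and the 384 with a positive one had medians of 0.25 with fatty acids and -0.42 without. When combination replicate 2 was left out, the medians with fatty acids were -0.14 for the negative and 0.21 for the positive genes, and those without fatty acids were 0.45 and -0.38. These 2 folds are the parts from which the interaction was computed, so they describe the called genes and are no separate evidence. The fold of fatty acids alone had the same sign as that of formoterol alone in 891 of the 997 genes. Without combination replicate 2 it did so in 918 of the 1023. Both single treatments, each past the threshold, raised 279 genes with a negative interaction and lowered 117 with a positive one. These numbers were 430 and 134 without combination replicate 2. Both single effects share the control libraries, which also enter the interaction, so these counts too only describe the called genes. Over all genes, formoterol changed 507 (2.80%) in cells with fatty acids, 304 upward (1.68%) and 203 downward (1.12%). In cells without fatty acids it changed 1872 (10.3%), 1043 upward (5.76%) and 829 downward (4.57%). Fatty acids changed 3342 genes (18.4%) in cells with formoterol, 1717 upward (9.48%) and 1625 downward (8.97%), and 2998 (16.5%) in cells without, 1618 upward (8.93%) and 1380 downward (7.62%). The counts for gene groups below are to be read against these shares. On the linear scale, the difference between CPM differences had the same sign as the log2 interaction in 380 of the 384 positive and in 613 of the 613 negative genes.

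Gene groups differed in how many members were called. The groups with the largest share of negative calls were hepatocyte markers, drug metabolism, cholesterol synthesis, fatty acid oxidation, triglyceride and lipoprotein genes, bile acid genes, and urea cycle and amino acid breakdown. Positive calls made up 3 of 8 genes of the interleukin 1 receptor family and 5 of 24 of the cAMP response. The median over all genes tested was 0.01, against which the medians below are to be read.

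**Figure D2:**
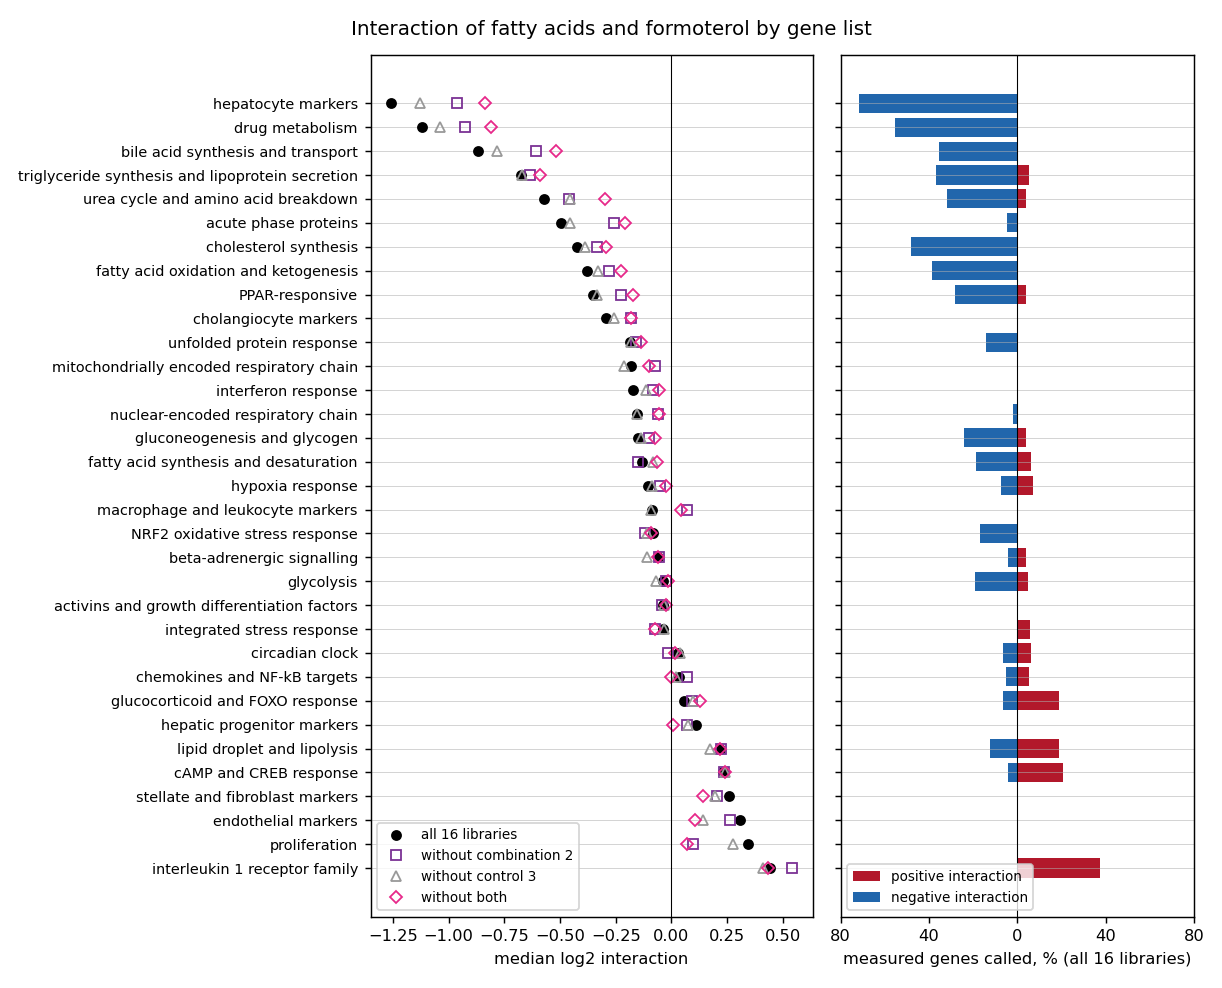
Gene lists run down the page. On the left, points give the median log2 interaction of each list's measured genes with all 16 libraries (black dots), without combination replicate 2 (purple squares), without control replicate 3 (grey triangles) and without both (pink diamonds). On the right, bars give the percentage of measured genes called positive (red) or negative (blue) with all 16 libraries; hepatocyte markers, with 15 of 21 negative, have the longest blue bar.

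Genes that mark mature hepatocytes were raised by formoterol in cells without fatty acids, and few of them passed the test when it was added to fatty acids. Of 21 measured hepatocyte markers, 15 had a negative interaction and 0 a positive one, with a median of -1.26. Formoterol alone raised 15 of the 21, with a median log2 fold of 0.93; added to fatty acids it raised 0 and lowered 1, with a median of -0.32. That median depended on combination replicate 2: without it formoterol added to fatty acids raised 2 and lowered 0, with a median of -0.06. Fatty acids alone raised 13 and lowered 1, and the mean level of the list in combination replicates 1, 3 and 4 lay within the range of the fatty acid libraries and below every formoterol library. Without combination replicate 2 the negative calls numbered 18, with a median of -0.96, and with control replicate 3 left out as well they were again 18, with a median of -0.84. The count was 5 without control replicate 3 alone, with a median of -1.13, and between 7 and 9 without control replicate 4, formoterol replicate 1, 3 or 4, or fatty acid replicate 1, 3 or 4. In bulk RNA, fewer hepatocyte-like cells and less of these RNAs per cell cannot be told apart.

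ALB (ENSG00000163631, chr4:73397114-73421412) encodes albumin, the main secreted protein of hepatocytes. Its level was 24588, 9823, 26671 and 25759 CPM in the combination and 30556, 27566, 31274 and 30595 CPM with fatty acids alone. Levels were 31193, 30590.5, 31946 and 31699 CPM with formoterol alone and 17449, 19891, 11609 and 17068 CPM in control. Every formoterol and every fatty acid library lay above every control library, and every combination library lay below every fatty acid library, with combination replicate 2 below the controls as well. The interaction was -1.39 ± 0.28, adjusted p = 0.00677, and it was -1.15 ± 0.13, adjusted p = 4.56e-06 without combination replicate 2. ALB is 1 of several genes added here after their values had been seen, because they represent the hepatocyte list.

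APOA1 (ENSG00000118137, chr11:116835751-116837950), the main protein of high-density lipoprotein, had 664, 203, 759 and 743 CPM with fatty acids and formoterol together and 777, 659.7, 771 and 834 CPM in the fatty acid group. It had 678, 667, 677 and 860.3 CPM in the formoterol group and 357, 345, 285 and 356 CPM in the control group. Formoterol and fatty acid libraries lay above all controls, combination replicates 1, 3 and 4 lay within the range of the fatty acid libraries, and combination replicate 2 lay below the controls. Formoterol's log2 fold was -0.36 ± 0.24 with fatty acids and 1.10 ± 0.24 without, and the interaction was -1.46 ± 0.33, adjusted p = 0.0146 (-1.18 ± 0.12, adjusted p = 1.35e-06 without combination replicate 2).

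RBP4 (ENSG00000138207, chr10:93591687-93601744), the plasma carrier of retinol, was highest with formoterol alone. It had 1463, 642, 1709.8 and 1706 CPM in combination libraries and 1806, 1533, 1640.4 and 1819.8 CPM in fatty acid libraries. Levels of 2607, 2373, 2492 and 3097 CPM were found in formoterol libraries and of 1313, 1296, 1188 and 1489.9 CPM in control libraries. The formoterol libraries stood above every other library, whereas the fatty acid libraries reached only slightly above the controls and the combination libraries overlapped with both. The interaction was -1.30 ± 0.26, adjusted p = 0.00711, and formoterol's log2 fold was -0.30 ± 0.18 with fatty acids and 1.00 ± 0.19 without. HNF4A (ENSG00000101076, chr20:44355700-44434596), the nuclear receptor that maintains hepatocyte identity, averaged 123 ± 32.9 CPM in the combination, 122 ± 8.68 CPM with fatty acids alone, 163 ± 11.2 CPM with formoterol alone and 95.3 ± 4.14 CPM in control (SD, n = 4 each). Its 4 formoterol libraries lay above the other 12. The interaction of -0.76 ± 0.18, adjusted p = 0.0206 was not called without control replicate 3 (-0.73, adjusted p = 0.0527). CEBPA, a further transcription factor of hepatocytes, had -1.15 ± 0.28, adjusted p = 0.019 and likewise missed the threshold without that library (-1.10, adjusted p = 0.0504).

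The asialoglycoprotein receptor subunit ASGR1 had an interaction of -1.40 ± 0.29, adjusted p = 0.00793. The iron carrier transferrin, TF, had -1.48 ± 0.39, adjusted p = 0.0283, called in 10 of 16 fits, and the plasma proteins APOH and AMBP had -1.27 ± 0.36, called in 5 of 16 fits, and -1.26 ± 0.37, called in 3 of 16 fits. AHSG, the plasma glycoprotein fetuin-A, had the largest interaction in the list, -2.15 ± 0.59, adjusted p = 0.0362, at a low level of 4.66 ± 2.93 CPM in the combination, 7.94 ± 1.99 CPM with fatty acids alone, 4.19 ± 0.730 CPM with formoterol alone and 1.61 ± 0.401 CPM in control. It was not called without control replicate 3 (-1.99, adjusted p = 0.0878, called in 5 of 16 fits). The fibrinogen chain FGB was raised by formoterol without fatty acids (1.13 ± 0.14, adjusted p = 3.89e-05) and had an interaction of -0.77 ± 0.20, adjusted p = 0.0278, also lost without control replicate 3 (-0.69, adjusted p = 0.0701, called in 12 of 16 fits). Of 21 acute phase genes, which overlap this list, 1 was called with all 16 libraries, FGB, and without combination replicate 2 there were 6 negative and 1 positive.

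**Figure D3:**
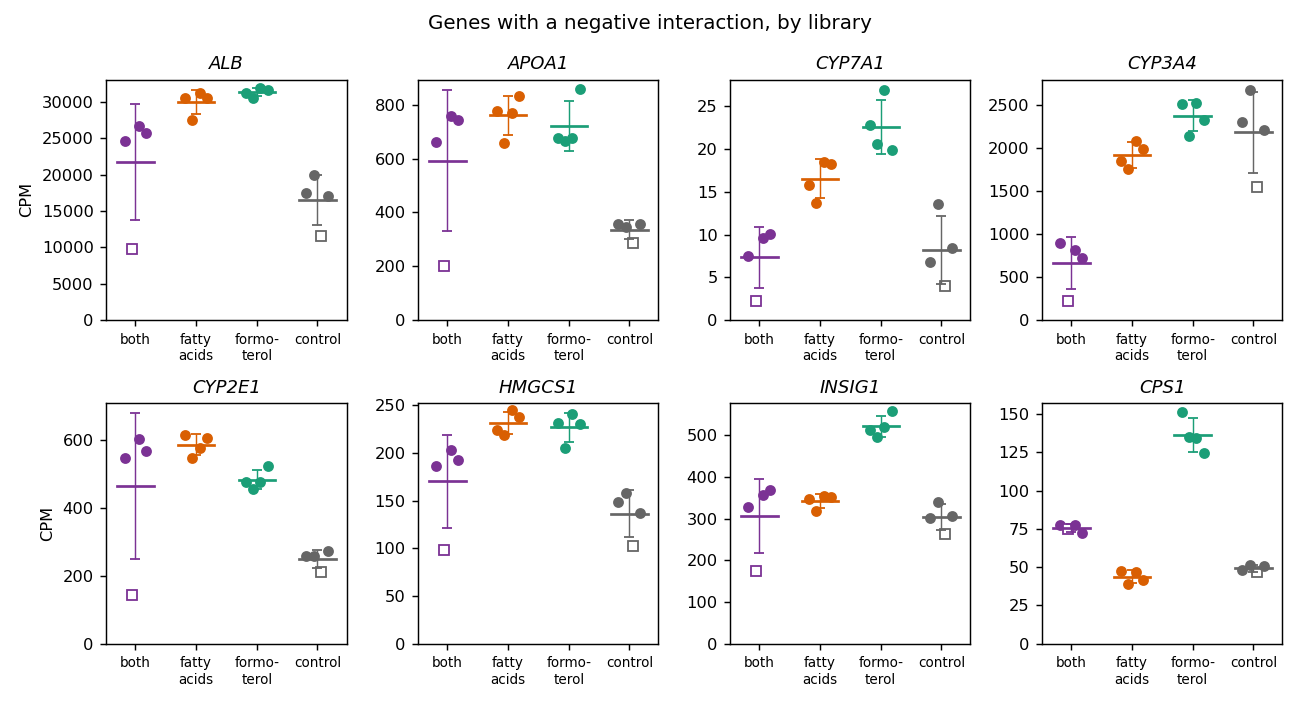
Points are CPM in each library for ALB, APOA1, CYP7A1, CYP3A4, CYP2E1, HMGCS1, INSIG1 and CPS1, with groups from left to right the combination ("both"), fatty acids, formoterol and control, and bars give the mean and SD of 4 libraries. Open squares are combination replicate 2 and control replicate 3; combination replicate 2 is the lowest combination library in each panel except CPS1, where replicate 4 is slightly lower.

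Markers of other cells and of dividing cells were looked at beside these genes. Proliferation genes stood highest in the library with the lowest hepatocyte markers: relative to the control mean, their mean log2 level was 1.15, 1.71, 1.20 and 1.19 in combination replicates 1 to 4, 0.54 to 0.96 with fatty acids alone, 0.20 to 0.43 with formoterol alone and -0.06 to 0.15 in control. Among the 22 proliferation genes edgeR called 0 interactions (MKI67 0.63 ± 0.26, adjusted p = 0.174, TOP2A 0.36 ± 0.20, adjusted p = 0.342), with 5 at an unadjusted p under 0.05, 3 called by DESeq2 and 0 by limma voom, although 15 genes rose when formoterol was added to fatty acids and 5 when it was added without them. These numbers were 10 and 8 without combination replicate 2, and the median interaction of the list was 0.10, against 0.34 with all libraries. The 15 also became 6 without fatty acid replicate 3 and 8 without fatty acid replicate 4, and the 5 became 3 without control replicate 1, formoterol replicate 2 or formoterol replicate 3 and 2 without formoterol replicate 4. The summed level of the 12 measured stellate and fibroblast markers was 1469 to 1633 CPM in the combination, 1579 to 1751 CPM with fatty acids alone, 1188 to 1444 CPM with formoterol alone and 1351 to 1805 CPM in control. The summed level of the 9 measured cholangiocyte markers was 379.6 to 469 CPM in the combination, 451 to 501 CPM with fatty acids alone, 305 to 333 CPM with formoterol alone and 267 to 284 CPM in control, and the 8 libraries with fatty acids lay above the 8 without. edgeR called 0 interactions in these 2 lists, against 2 stellate and 6 cholangiocyte genes at an unadjusted p under 0.05, and DESeq2 called 0 and 3 of them and limma voom 0 and 2. The 5 measured progenitor, 5 leukocyte and 2 endothelial markers had 0 calls with each of the 3 tools and 0, 2 and 0 genes at an unadjusted p under 0.05. With edgeR and without combination replicate 2 the cholangiocyte genes KRT19 (-0.39 ± 0.10, adjusted p = 0.0212) and CD24 (-0.41 ± 0.10, adjusted p = 0.00992) were called negative. The part of these cell types in the hepatocyte result was not tested.

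**Figure D4:**
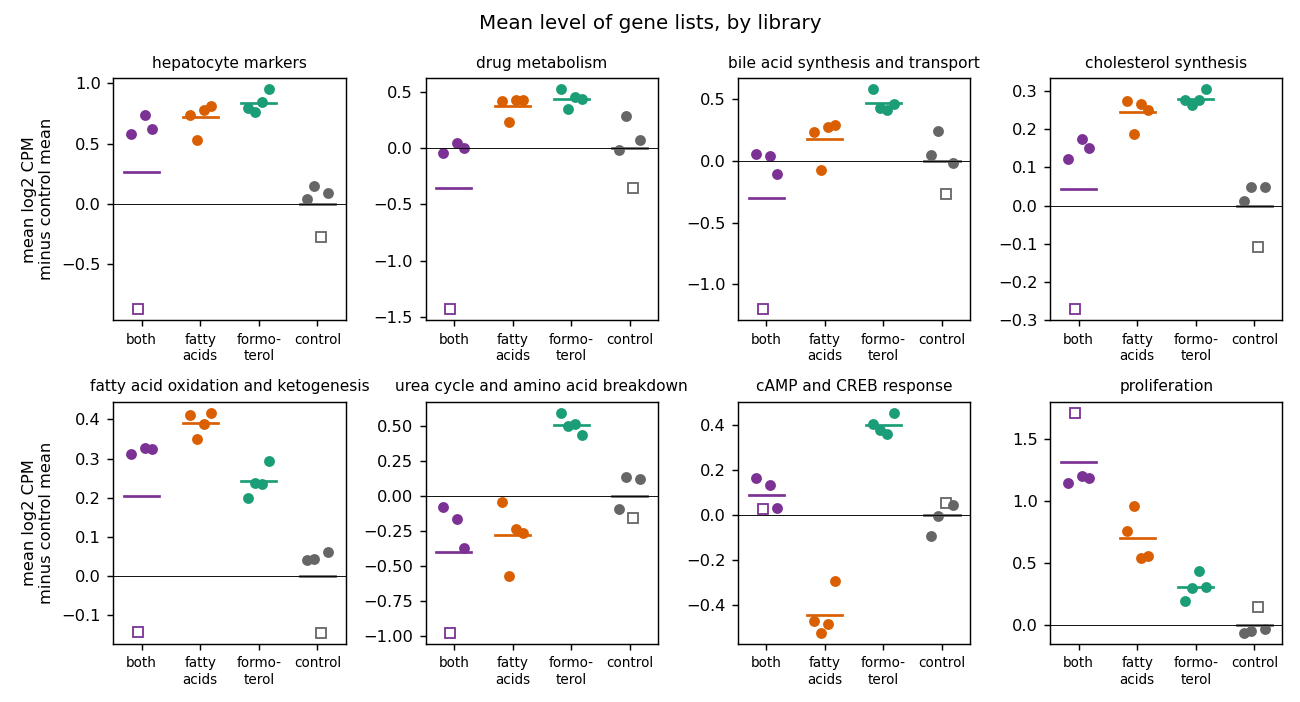
Each point is 1 library: the mean log2 CPM over the measured genes of a list, minus the mean of the 4 control libraries. Groups run from left to right as the combination ("both"), fatty acids, formoterol and control; open squares are combination replicate 2 and control replicate 3. Hepatocyte markers lie between 0.53 and 0.95 in the fatty acid and formoterol libraries, and at -0.87 in combination replicate 2; cAMP response genes are lowest in the fatty acid libraries.

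Several drug-metabolizing enzymes were lower with the combination than in every other group, control included. Of 27 measured drug metabolism genes, 15 had a negative interaction and 0 a positive one, with a median of -1.12. Formoterol alone raised 8 and lowered 1, but added to fatty acids it raised 1 and lowered 7, and fatty acids added to formoterol lowered 11 and raised 0. The 8 became 17 without combination replicate 2 and 5 without control replicate 3. The 7 became 3 or 4 without control replicate 1 or 4, formoterol replicate 1, 2 or 3, or any 1 fatty acid replicate. Without combination replicate 2 the negative calls numbered 19, with a median of -0.93, and without control replicate 3 as well they numbered 18. They numbered 6 without control replicate 3 alone, 8 without fatty acid replicate 1 and 9 without fatty acid replicate 3.

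CYP3A4 (ENSG00000160868, chr7:99756960-99784265), the cytochrome P450 that oxidizes the widest range of drugs in human liver, had 896, 217, 816 and 723 CPM in the combination and 1852, 1750.2, 2081 and 1987 CPM with fatty acids alone. Levels were 2509, 2136, 2522 and 2327 CPM with formoterol alone and 2304, 2669, 1542 and 2209 CPM in control. All 4 combination libraries lay below all 12 others, while the fatty acid and the formoterol libraries both lay within the range of the controls. Formoterol's log2 fold was -1.53 ± 0.26, adjusted p = 0.00112 with fatty acids and 0.12 ± 0.25, adjusted p = 0.825 without, and that of fatty acids without formoterol was -0.19 ± 0.25. The interaction was -1.65 ± 0.36, adjusted p = 0.0102, and it was called in all 25 alternative fits, with -1.36 ± 0.15, adjusted p = 3.19e-06 when combination replicate 2 was left out.

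CYP2B6 and CYP2A6, drug- and nicotine-oxidizing P450 enzymes, likewise had all combination libraries below all others. CYP2B6 averaged 46.4 ± 25.0 CPM in the combination, 109.5 ± 19.4 CPM with fatty acids alone, 138 ± 18.2 CPM with formoterol alone and 93.6 ± 20.3 CPM in control (SD, n = 4 each). Unlike in CYP3A4, every formoterol library of CYP2B6 lay above every control library. Its formoterol fold without fatty acids was 0.56 ± 0.31, adjusted p = 0.294 with all libraries. Without combination replicate 2 it was 0.56 ± 0.13, adjusted p = 0.0028. CYP2A6 had 22.1, 4.88, 19.6 and 15.5 CPM in the combination, against 50.5, 69.2, 34.3 and 62.4 CPM in control. Their interactions were -1.80 ± 0.45, adjusted p = 0.0226 and -1.51 ± 0.39, adjusted p = 0.0263; neither was called without control replicate 3 (-1.66, adjusted p = 0.059 and -1.34, adjusted p = 0.0651, called in 11 of 16 fits). Both genes have near-identical copies nearby whose reads could be split or shared. CYP2C8 (-1.70 ± 0.37), which clears several common drugs, was also negative.

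CYP2E1 (ENSG00000130649, chr10:133520406-133561220), the ethanol-oxidizing P450, had 548, 142, 602 and 567 CPM with fatty acids and formoterol together and 614, 546, 577 and 606 CPM in the fatty acid group. It had 478, 457, 475 and 523 CPM in the formoterol group and 257, 259, 211 and 274 CPM in the control group. Both single treatments put it above all controls, and combination replicates 1, 3 and 4 lay no higher than the fatty acid libraries, with replicate 2 below the controls. The interaction was -1.28 ± 0.35, adjusted p = 0.0345 with all libraries, -1.21, adjusted p = 0.0823, called in 6 of 16 fits without control replicate 3, and -0.98 ± 0.10, adjusted p = 1.03e-06 without combination replicate 2. Negative interactions were also called for the alcohol dehydrogenase ADH1B (-1.18 ± 0.26, adjusted p = 0.0123), the glutathione transferase GSTA1 (-1.12 ± 0.23, adjusted p = 0.00869; its reads could be shared with GSTA2) and the bilirubin-conjugating UGT1A1 (-0.93 ± 0.24, adjusted p = 0.0258, called in 12 of 16 fits; its exons are shared with the other UGT1A genes). The drug-sensing receptor NR1I2 was called without combination replicate 2 (-0.77 ± 0.19, adjusted p = 0.014) and not in the main fit. It was called in 4 of the 25 alternatives. NR1I3 was not called in either fit (-0.71 ± 0.38, adjusted p = 0.316 with all libraries). NR1I3 overlaps TOMM40L on the other strand, which had 5.53 times its counts, so its level is uncertain.

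Some bile acid and cholesterol genes were raised by formoterol alone. In these 2 lists 0 genes passed the test for a rise when it was added to fatty acids, with all libraries or with any 1 left out. Formoterol alone raised 7 of 17 bile acid genes and lowered 0; added to fatty acids it raised 0 and lowered 1. The 7 became 3 without control replicate 3 and 4 without control replicate 1 or 4 or formoterol replicate 1, and 1 to 3 were lowered with fatty acids when any 1 library was left out. For 25 cholesterol synthesis genes these numbers were 10 raised and 0 lowered without fatty acids, and 0 raised and 3 lowered with them. Without combination replicate 2 they were 14 and 1 without fatty acids and 0 and 1 with them; the 3 lowered also became 1 without combination replicate 4 or formoterol replicate 1 or 2, and 0 without formoterol replicate 3 or any 1 fatty acid replicate. Of the 17 measured bile acid genes, 6 were called negative and 0 positive, with a median of -0.87; without combination replicate 2 there were 8, with a median of -0.61, and without control replicate 3 there were 2. Of the 25 cholesterol synthesis genes, 12 were negative and 0 positive, and all 25 estimates were below 0, with a median of -0.43. In this list 8 to 13 members were called when any 1 library was left out, 11 of them without combination replicate 2 and 10 without both libraries.

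CYP7A1 (ENSG00000167910, chr8:58490178-58500236), the rate-limiting enzyme of bile acid synthesis, had the largest negative interaction among protein-coding genes that reached a mean of 2 CPM in some group and were called with and without combination replicate 2. It had 7.44, 2.19, 9.63 and 10.0 CPM in combination libraries and 15.8, 13.7, 18.4 and 18.3 CPM in fatty acid libraries. Levels of 22.8, 20.6, 26.9 and 19.9 CPM were found in formoterol libraries and of 6.80, 13.5, 4.04 and 8.38 CPM in control libraries. Formoterol libraries lay above all others and fatty acid libraries above all controls, whereas combination replicates 1, 3 and 4 lay within the range of the controls. The interaction was -2.63 ± 0.45, adjusted p = 0.0023 (-2.33 ± 0.31, adjusted p = 3.01e-05 without combination replicate 2), from a formoterol fold of -1.17 ± 0.32 with fatty acids and 1.46 ± 0.32 without.

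BAAT (ENSG00000136881, chr9:101360417-101383519), which joins bile acids to glycine or taurine, had 108, 70.4, 113 and 108 CPM in the combination and 142, 153, 177 and 148 CPM with fatty acids alone. Levels were 182, 168, 172 and 173 CPM with formoterol alone and 112, 135, 90.3 and 113 CPM in control. Every library of either single treatment lay above every other library. Its formoterol fold passed the threshold in both settings and in opposite directions, -0.63 ± 0.12, adjusted p = 0.00367 with fatty acids and 0.63 ± 0.12, adjusted p = 0.00201 without, and its interaction was -1.26 ± 0.17, adjusted p = 0.000467. The bile acid receptor NR1H4 had -0.87 ± 0.21, adjusted p = 0.0189, lost without control replicate 3 (-0.78, adjusted p = 0.0525). The hepatic uptake carrier SLCO1B1 (-1.46 ± 0.38, adjusted p = 0.0283, called in 12 of 16 fits) and the steroid reductase AKR1D1 (-1.33 ± 0.36, adjusted p = 0.0318, called in 8 of 16 fits) were negative, and the bile acid carriers SLC10A1 (-0.91 ± 0.34, adjusted p = 0.121) and ABCB11 (-0.89 ± 0.61, adjusted p = 0.462) were not called.

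HMGCS1 (ENSG00000112972, chr5:43289395-43313512), which makes the precursor of mevalonate for cholesterol synthesis, had 187, 98.3, 203 and 192 CPM with fatty acids and formoterol together and 224, 219, 245 and 238 CPM in the fatty acid group. It had 232, 206, 241 and 230.4 CPM in the formoterol group and 148, 159, 102 and 137 CPM in the control group. Every library of either single treatment lay above every control library, and every combination library lay below every library of either single treatment. The interaction was -1.18 ± 0.22, adjusted p = 0.00407. INSIG1 (ENSG00000186480, chr7:155297776-155310235), which holds back the sterol-sensing transcription factors, was highest with formoterol alone. It had 327, 176, 357 and 368 CPM in combination libraries and 346, 319, 355 and 352 CPM in fatty acid libraries. Levels of 513, 496, 521 and 558 CPM were found in formoterol libraries and of 302, 341, 265 and 306 CPM in control libraries. Every formoterol library lay above all 12 others, which overlapped. Its interaction was -0.94 ± 0.20, adjusted p = 0.0097. IDI1 (-0.84 ± 0.14), MSMO1 (-0.76 ± 0.13), SC5D (-0.70 ± 0.11) and SQLE (-0.41 ± 0.11, called in 12 of 16 fits), enzymes further along the pathway, were negative too.

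Fatty acids alone raised many genes of fatty acid oxidation, and part of these genes had a negative interaction. Of 26 measured genes of oxidation and ketone synthesis, 10 were called negative and 0 positive, with a median of -0.38. Formoterol alone raised 8 of them and lowered 1, and fatty acids alone raised 14 and lowered 2. That 8 became 16 without combination replicate 2, 3 without control replicate 3, 4 without formoterol replicate 3, and 5 without control replicate 1 or formoterol replicate 2 or 4. There were also 10 calls without combination replicate 2, 4 without control replicate 3, 6 without fatty acid replicate 1, and 8 without combination replicate 2 and control replicate 3. Of 25 PPAR-responsive genes, 7 were negative and 1 positive, with a median of -0.35 (-0.23 without combination replicate 2), and fatty acids alone raised 20 of them. That negative count was 2 without control replicate 3 and 4 without formoterol replicate 3, fatty acid replicate 1 or fatty acid replicate 3.

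EHHADH (ENSG00000113790, chr3:185190624-185281990), a peroxisomal enzyme of fatty acid oxidation, had 409, 236, 432 and 404 CPM in the combination and 466, 436, 507 and 481 CPM with fatty acids alone. Levels were 524, 501, 516 and 514 CPM with formoterol alone and 351, 414, 281 and 351 CPM in control. Every formoterol-alone library was above every control library, and every combination library was below every library with fatty acids alone. Formoterol's log2 fold change was -0.35 ± 0.13 with fatty acids and 0.56 ± 0.13 without, and the interaction was -0.91 ± 0.19, adjusted p = 0.00741 (-0.74 ± 0.11, adjusted p = 8.39e-05 without combination replicate 2). BDH1, which interconverts the ketone bodies, had -1.69 ± 0.44, adjusted p = 0.0279, called in 10 of 16 fits.

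PDK4 (ENSG00000004799, chr7:95583499-95596491), the kinase that inhibits pyruvate dehydrogenase, had 2509, 3065, 2502 and 2435 CPM with fatty acids and formoterol together and 2454, 2599, 2497 and 2371 CPM in the fatty acid group. It had 797, 777, 764 and 766 CPM in the formoterol group and 731, 728, 794 and 702 CPM in the control group. Libraries with fatty acids, with or without formoterol, lay far above those without, and combination replicate 2 was the highest of all. No interaction was detected (0.01 ± 0.09, adjusted p = 0.961, 95% interval -0.18 to 0.20), and the sign of the estimate turned in 5 of the 25 alternative fits. CPT1A, which brings fatty acids into mitochondria, likewise had none (-0.0027 ± 0.09, adjusted p = 0.991) beside a rise with fatty acids alone of 0.83 ± 0.06. ANGPTL4, a secreted inhibitor of lipoprotein lipase, was raised by fatty acids whether formoterol was present (2.28 ± 0.14) or not (2.76 ± 0.14). Its interaction was called without combination replicate 2 and not in the main fit (-0.66 ± 0.15, adjusted p = 0.00732, against -0.48 ± 0.19, adjusted p = 0.146 with all libraries). It was called in 4 of the 25 alternatives.

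PLIN2 (ENSG00000147872, chr9:19108375-19149290), the coat protein of lipid droplets in hepatocytes, had an interaction in the positive direction. It had 518, 474, 508 and 465 CPM in combination libraries and 563, 542, 540.1 and 552 CPM in fatty acid libraries. Levels of 150.3, 161, 150.0 and 162 CPM were found in formoterol libraries and of 256, 229, 249 and 258 CPM in control libraries. Formoterol lowered it below every control library in cells without fatty acids (-0.67 ± 0.06, adjusted p = 1.96e-07), but with fatty acids its fold was -0.16 ± 0.06, adjusted p = 0.143. The interaction was 0.51 ± 0.08, adjusted p = 0.00112 and was called in all 25 alternatives. PLIN1 (0.66 ± 0.14) and PLIN4 (0.48 ± 0.08), coat proteins better known from fat cells, were positive as well. PLIN1 overlaps PEX11A on the same strand, which had 3.35 times its counts, so its level is uncertain. PLIN4 overlaps HDGFL2 on the other strand, which had 0.2 times its counts. In the same list of 16 measured genes, G0S2, an inhibitor of triglyceride lipase, and HSD17B11, a droplet-associated dehydrogenase, were negative, at -1.23 ± 0.24, adjusted p = 0.00582 and -0.72 ± 0.10, adjusted p = 0.000693. The list thus held 3 positive and 2 negative calls, with a median of 0.22.

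Of 19 measured genes of triglyceride synthesis and lipoprotein secretion, 7 were negative and 1 was positive, with a median of -0.68; the negative calls numbered 11 without combination replicate 2, 3 without control replicate 3 and 4 without formoterol replicate 3 or fatty acid replicate 1. APOA2, a further protein of high-density lipoprotein, had -2.42 ± 0.54, adjusted p = 0.0127 at a level of 2.21 ± 1.18 CPM in the combination, 2.66 ± 0.817 CPM with fatty acids alone, 5.39 ± 1.30 CPM with formoterol alone and 1.21 ± 0.423 CPM in control. APOE, a ligand for lipoprotein uptake, had -1.47 ± 0.35, adjusted p = 0.0176 and was not called without control replicate 3 (-1.37, adjusted p = 0.0504). MTTP, which loads lipid onto apolipoprotein B, had -1.18 ± 0.27 and DGAT2, which makes triglyceride, had -1.04 ± 0.28, called in 8 of 16 fits. The positive gene was LPIN3, a phosphatidate phosphatase, at 1.32 ± 0.37, adjusted p = 0.0374, called in 7 of 16 fits. The desaturase SCD had -1.41 ± 0.34, adjusted p = 0.0183, not called without control replicate 3 (-1.29, adjusted p = 0.0504), and THRSP, a regulator of lipid synthesis that overlaps NDUFC2, had -1.92 ± 0.37, adjusted p = 0.0056.

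Genes of amino acid breakdown and glucose production include classical targets of cAMP in liver. Of 25 measured urea cycle and amino acid genes, 8 were negative and 1 was positive, with a median of -0.57. Formoterol alone raised 14 of the 25 (9 without control replicate 3 or formoterol replicate 1), and added to fatty acids it raised 3. The negative calls numbered 10 without combination replicate 2, 3 without control replicate 3 and 5 without formoterol replicate 4 or fatty acid replicate 1. Of 25 genes of gluconeogenesis and glycogen metabolism, 6 were negative and 1 positive, with 5 to 7 negative when any 1 library was left out.

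CPS1 (ENSG00000021826, chr2:210477682-210679107), the entry enzyme of the urea cycle, showed a smaller but persistent response to formoterol in the presence of fatty acids. It had 77.3, 74.6, 77.9 and 72.1 CPM in the combination and 47.5, 38.9, 47.1 and 41.4 CPM with fatty acids alone. Levels were 151, 135, 135 and 125 CPM with formoterol alone and 47.9, 51.2, 46.9 and 51.1 CPM in control. Formoterol libraries lay above all others, combination libraries came next without overlap, and fatty acid and control libraries were lowest. Formoterol raised CPS1 in both settings, by 0.79 ± 0.07, adjusted p = 5.95e-07 with fatty acids and 1.47 ± 0.07, adjusted p = 3.09e-11 without, and the interaction was -0.68 ± 0.10, adjusted p = 0.000848. It was the same without combination replicate 2 (-0.68 ± 0.10, adjusted p = 0.000138), which was close to the other combination libraries for this gene.

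SDS (ENSG00000135094, chr12:113392445-113426301), serine dehydratase, which turns serine into pyruvate, was the 1 positive gene of the amino acid list. It had 13.0, 8.59, 13.9 and 15.1 CPM with fatty acids and formoterol together and 3.25, 2.20, 2.75 and 2.81 CPM in the fatty acid group. It had 80.4, 85.8, 75.5 and 90.0 CPM in the formoterol group and 32.5, 38.5, 30.3 and 36.5 CPM in the control group. No 2 groups overlapped: levels were lowest with fatty acids alone, then came the combination, control and formoterol alone. Formoterol's fold was 2.20 ± 0.15, adjusted p = 6.69e-09 with fatty acids and 1.27 ± 0.12, adjusted p = 1.67e-06 without, and the interaction was 0.93 ± 0.20, adjusted p = 0.00873 (1.08 ± 0.15, adjusted p = 4.13e-05 without combination replicate 2). In CPM, the combination exceeded fatty acids by less than formoterol exceeded control, so the sign holds for the ratio and not for the difference. Reads of SDS overlap those of SDSL on the other strand, counted 0.565 times as often.

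OTC, a urea cycle enzyme, had -1.98 ± 0.48, adjusted p = 0.0208, and TAT, tyrosine aminotransferase, had -1.60 ± 0.44, adjusted p = 0.0375; neither was called without control replicate 3 (-1.81, adjusted p = 0.0553 and -1.37, adjusted p = 0.0735, called in 6 of 16 fits). HPD, which acts after TAT in tyrosine breakdown, had -1.04 ± 0.24, adjusted p = 0.0141 and was called in all 25 alternatives. G6PC (ENSG00000131482, chr17:42900797-42913369), glucose-6-phosphatase, the last step of glucose output, had 64.3, 21.5, 66.7 and 63.8 CPM in combination libraries and 75.0, 64.3, 91.0 and 84.8 CPM in fatty acid libraries. Levels of 109.6, 88.4, 113 and 103 CPM were found in formoterol libraries and of 43.2, 57.2, 25.4 and 49.6 CPM in control libraries. Formoterol libraries lay above nearly all fatty acid libraries and above every control library, and combination replicates 1, 3 and 4 lay at the lower end of the fatty acid range. Its interaction was -1.78 ± 0.35, adjusted p = 0.0059. PCK2, the mitochondrial form of phosphoenolpyruvate carboxykinase, had -0.81 ± 0.17, adjusted p = 0.00857, while the cytosolic form PCK1, the better known cAMP target, was not called (-0.53 ± 0.23, adjusted p = 0.2, 95% interval -1.02 to -0.05). SLC2A2, the glucose transporter of hepatocytes, had -1.34 ± 0.29, adjusted p = 0.012, and the ubiquitous transporter SLC2A1 had 0.41 ± 0.10, adjusted p = 0.024; only the first was called without control replicate 3 (-1.21, adjusted p = 0.0332 and 0.39, adjusted p = 0.0571, called in 12 of 16 fits).

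The direct cAMP and CREB targets were examined next, and for these the promoter sequence is of use, because CREB binds the palindrome TGACGTCA, the cAMP response element, and the shorter TGACG. The 250 bases before the transcription start of 3 genes that formoterol moved are shown with both strands searched; capitals mark a full element or a TGACG that stands alone, and a TGACG on the complementary strand reads CGTCA. Sequences, starts and coordinates are from RefSeq on GRCh38.p14, written 5′ to 3′ along the gene.
CGA (chr6:87095107-87095356, minus strand): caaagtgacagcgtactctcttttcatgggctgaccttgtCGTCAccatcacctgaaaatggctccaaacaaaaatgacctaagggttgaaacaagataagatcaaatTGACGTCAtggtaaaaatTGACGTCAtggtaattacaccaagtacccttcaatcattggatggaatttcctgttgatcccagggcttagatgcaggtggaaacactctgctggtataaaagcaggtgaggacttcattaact
DUSP1 (chr5:172771196-172771445, minus strand): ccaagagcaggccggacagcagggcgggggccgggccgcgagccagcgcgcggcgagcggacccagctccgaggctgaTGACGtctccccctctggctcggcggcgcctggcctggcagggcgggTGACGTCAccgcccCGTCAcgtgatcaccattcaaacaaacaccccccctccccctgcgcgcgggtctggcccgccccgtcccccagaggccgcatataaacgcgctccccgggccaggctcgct
NR4A3 (chr9:99821635-99821884, plus strand): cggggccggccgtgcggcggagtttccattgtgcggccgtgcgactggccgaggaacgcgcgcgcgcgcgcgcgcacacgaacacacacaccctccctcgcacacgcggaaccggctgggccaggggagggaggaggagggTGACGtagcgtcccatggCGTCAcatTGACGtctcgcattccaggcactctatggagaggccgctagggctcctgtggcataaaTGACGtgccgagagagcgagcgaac
The CGA promoter held 2 full elements, starting 142 and 124 bases before the start, DUSP1 held 1 at 125 bases, and NR4A3 held 0 full elements and 4 copies of TGACG, the nearest at 25 bases.

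CGA (ENSG00000135346, chr6:87085498-87095406), the alpha subunit of the glycoprotein hormones and a long-known CREB target, had the largest formoterol fold of the cAMP response genes in both settings. It had 25.8, 33.7, 26.8 and 27.8 CPM in the combination and 0.586, 1.20, 1.24 and 1.47 CPM with fatty acids alone. Levels were 33.1, 29.8, 36.0 and 43.0 CPM with formoterol alone and 1.43, 0.986, 2.16 and 1.68 CPM in control. The 8 libraries with formoterol lay far above the 8 without, and combination and formoterol libraries overlapped. Formoterol's log2 fold was 4.65 ± 0.21, adjusted p = 9.69e-12 with fatty acids and 4.50 ± 0.20, adjusted p = 9.28e-12 without. No interaction was detected: the estimate was 0.15 ± 0.29, adjusted p = 0.834 (unadjusted 95% interval -0.45 to 0.76), and its sign turned in 3 of the 25 alternative fits.

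Of the 24 measured cAMP response genes, 5 had a positive interaction and 1 a negative one, with a median of 0.23. Fatty acids alone lowered 12 of them and raised 1 (0 without control replicate 1, 3 or 4 or fatty acid replicate 1 or 4). Formoterol added to fatty acids raised 8 and lowered 0 (1 without fatty acid replicate 3 or combination replicate 1), and formoterol alone raised 7 and lowered 3 (1 without control replicate 3). The positive calls numbered 4 without combination replicate 2, with a median of 0.24, and 3 to 6 when any 1 library was left out; 3 was the number without control replicate 3. The positive genes were DUSP1, BTG2, PER1, JUNB and RGS2, and the negative one was TAT.

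DUSP1 (ENSG00000120129, chr5:172768090-172771195), a phosphatase that switches off MAP kinases, had 472, 462, 502 and 493 CPM with fatty acids and formoterol together and 361, 359, 389.9 and 395 CPM in the fatty acid group. It had 501, 595, 550.0 and 571 CPM in the formoterol group and 549, 511, 586 and 623 CPM in the control group. Fatty acid libraries lay below all others, and combination libraries overlapped with the lowest formoterol library. Formoterol raised it with fatty acids (0.36 ± 0.07, adjusted p = 0.00321) and not without (-0.03 ± 0.07, adjusted p = 0.814), an interaction of 0.39 ± 0.09, adjusted p = 0.0187. BTG2, an antiproliferative protein, instead fell with formoterol in cells without fatty acids (-0.60 ± 0.06, adjusted p = 4.54e-06) and did not pass with them (0.06 ± 0.06, adjusted p = 0.75). Its interaction of 0.65 ± 0.09, adjusted p = 0.000495 was called in all 25 alternatives. RGS2, which dampens G protein signalling, had 0.77 ± 0.22, adjusted p = 0.0445, called in 6 of 16 fits; JUNB, an AP-1 subunit, had 0.61 ± 0.15, adjusted p = 0.0197; and the clock gene PER1 had 0.52 ± 0.14, adjusted p = 0.0282, which was not called without control replicate 3 (0.44, adjusted p = 0.0735, called in 7 of 16 fits).

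NR4A3 (ENSG00000119508, chr9:99821855-99866891), an orphan nuclear receptor induced by cAMP, had 8.73, 11.8, 9.76 and 10.9 CPM in combination libraries and 3.08, 2.56, 1.84 and 2.88 CPM in fatty acid libraries. Levels of 13.4, 15.4, 10.2 and 17.1 CPM were found in formoterol libraries and of 6.59, 6.99, 5.35 and 5.81 CPM in control libraries. Fatty acid libraries lay below all others, and every library with formoterol lay above every library without it. Formoterol raised NR4A3 by 1.99 ± 0.18, adjusted p = 3.85e-07 in cells with fatty acids, against 1.19 ± 0.17, adjusted p = 0.000128 in cells without. The interaction of 0.80 ± 0.24, adjusted p = 0.0538 did not pass the threshold (unadjusted 95% interval 0.30 to 1.30). It was called in 1 of the 16 fits that left out 1 library and in 7 of the 25 alternatives. Scaling by total counts was among them (edgeR adjusted p = 0.0232). NR4A1, a related receptor, rose after formoterol with fatty acids (0.93 ± 0.20, adjusted p = 0.00943), had 0.16 ± 0.19, adjusted p = 0.666 without them, and its interaction did not pass (0.77 ± 0.28, adjusted p = 0.11). PDE4D, a phosphodiesterase that degrades cAMP, rose in both settings, by 1.63 ± 0.13 with fatty acids and 1.08 ± 0.12 without, with an interaction of 0.55 ± 0.18, adjusted p = 0.0748. That interaction was called in 5 of the 25 alternatives. PPARGC1A, the coactivator of gluconeogenic and mitochondrial genes, did not pass the threshold for formoterol in either setting (0.20 ± 0.07, adjusted p = 0.137 with fatty acids, 0.16 ± 0.07, adjusted p = 0.159 without), had an interaction of 0.05 ± 0.10, adjusted p = 0.851 (unadjusted 95% interval -0.16 to 0.25), and was lowered by fatty acids alone (-0.76 ± 0.07).

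A full cAMP response element stood within 250 bases before to 50 bases after the start of 10 of 226 genes (4.42%) with a positive interaction in both fits, of 12 of 425 (2.82%) with a negative one, and of 402 of 11222 (3.58%) protein-coding genes tested. The short TGACG, which lies within every full element, stood in 35.4%, 33.2% and 38.9% of the same genes. A gene was counted if any of its windows held the motif. Of all 35116 windows from RefSeq, taken singly, 1.85% held the full motif and 24.6% the short one. These shares are of windows, not of genes, and are not limited to tested genes, so they cannot be set against the gene shares. A match describes letters in a window and not binding.

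In the beta-adrenergic signalling list, 1 of 24 measured genes was positive and 1 negative. ADRA1A, an alpha1-adrenergic receptor of hepatocytes, fell with formoterol in cells without fatty acids (-0.73 ± 0.10, adjusted p = 0.00011) and not with them (-0.11 ± 0.10, adjusted p = 0.712), an interaction of 0.62 ± 0.14, adjusted p = 0.014. RAPGEF4, the cAMP-gated exchange factor EPAC2, had -1.26 ± 0.37, adjusted p = 0.0493 and was not called without control replicate 3 (-1.24, adjusted p = 0.097, called in 5 of 16 fits). PPP1R1A, an inhibitor of protein phosphatase 1 that protein kinase A activates, had -2.07 ± 0.47, adjusted p = 0.0147 at 2.90 ± 1.48 CPM in the combination, 4.63 ± 1.01 CPM with fatty acids alone, 4.17 ± 1.11 CPM with formoterol alone and 1.60 ± 0.311 CPM in control. It remained called without control replicate 3 (-1.94, adjusted p = 0.0416).

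Receptors of the interleukin 1 family, which carry the signals of interleukins 1, 18 and 33, included IL18R1, which had the smallest adjusted p of all positive interactions in the gene groups. Of 8 measured genes, 3 were positive and 0 negative, with a median of 0.44; there were 4 without combination replicate 2, with a median of 0.54, and 3 or 4 when any 1 library was left out. IL18R1 (ENSG00000115604, chr2:102311529-102398775), a subunit of the interleukin 18 receptor, had 95.4, 98.2, 94.6 and 94.8 CPM in the combination and 45.8, 50.2, 50.7 and 47.7 CPM with fatty acids alone. Levels were 118, 119.6, 112 and 115 CPM with formoterol alone and 108, 102, 112 and 103 CPM in control. Its libraries were within a few CPM of each other in each group, fatty acids alone gave the lowest level, and the combination lay between it and the other 2 groups. Formoterol raised it with fatty acids (0.98 ± 0.06, adjusted p = 2.57e-10) and had a fold of 0.13 ± 0.05, adjusted p = 0.133 without. The interaction was 0.85 ± 0.08, adjusted p = 3.33e-06, and 0.83 ± 0.08, adjusted p = 1.01e-06 without combination replicate 2.

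IL1RL1 (ENSG00000115602, chr2:102311502-102352037), the receptor for interleukin 33, was raised by formoterol in both settings, more with fatty acids. It had 217, 176, 237 and 193 CPM with fatty acids and formoterol together and 101, 98.0, 98.0 and 95.3 CPM in the fatty acid group. It had 237, 252, 246 and 255 CPM in the formoterol group and 171, 177, 183 and 162 CPM in the control group. Fatty acid libraries lay below all others, and combination libraries ran from within the control range up to the lowest formoterol library. Formoterol's fold was 1.07 ± 0.07, adjusted p = 6.69e-09 with fatty acids and 0.51 ± 0.07, adjusted p = 0.000119 without, and the interaction was 0.56 ± 0.10, adjusted p = 0.00365. IL18R1 and IL1RL1 lie on the same strand and overlap, so some of their reads may be shared. IL1R1, the signalling receptor for interleukin 1, fell with formoterol without fatty acids (-0.34 ± 0.05, adjusted p = 0.000242) and not with them (0.14 ± 0.05, adjusted p = 0.194), an interaction of 0.48 ± 0.07, adjusted p = 0.00105. OSMR, the oncostatin M receptor subunit, had 0.32 ± 0.08, adjusted p = 0.0284, which was not called without control replicate 3 (0.32, adjusted p = 0.0607, called in 10 of 16 fits). IL1R1 and OSMR were named after their values were seen.

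CCR7, a lymphocyte chemokine receptor, had the largest positive interaction among protein-coding genes that reached a mean of 2 CPM in some group and were called with and without combination replicate 2. It had 4.67, 5.10, 3.04 and 3.03 CPM in combination libraries and 0.849, 0.542, 1.54 and 1.09 CPM in fatty acid libraries. Levels of 3.51, 2.86, 2.64 and 2.17 CPM were found in formoterol libraries and of 1.90, 2.15, 3.47 and 3.55 CPM in control libraries. Fatty acid libraries lay below all others, and the other 3 groups overlapped. The interaction was 1.96 ± 0.41, adjusted p = 0.00867. IL21R, the interleukin 21 receptor, came from a different arrangement, 2.86, 3.28, 1.94 and 1.22 CPM in the combination and 1.96, 2.53, 2.04 and 3.16 CPM with fatty acids alone. Levels were 4.25, 2.70, 3.38 and 3.40 CPM with formoterol alone and 13.5, 8.56, 15.4 and 12.2 CPM in control. Control libraries stood above all 12 others, and the 3 treated groups overlapped with each other. Its interaction was 1.79 ± 0.35, adjusted p = 0.00627. CX3CL1, the chemokine fractalkine, was negative at -1.23 ± 0.15, adjusted p = 0.000216, with formoterol folds of -0.62 ± 0.11, adjusted p = 0.00138 with fatty acids and 0.61 ± 0.11, adjusted p = 0.00124 without, and CCL16, a chemokine made by liver, was negative at -2.36 ± 0.39, adjusted p = 0.00189.

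Several positive interactions with small adjusted p-values lay outside these groups; the next 5 genes were named after their values were seen. CASP14 (ENSG00000105141, chr19:15049384-15058293), a caspase of epidermal differentiation, had 84.3, 62.8, 75.6 and 68.6 CPM in the combination and 48.6, 45.3, 50.7 and 48.5 CPM with fatty acids alone. Levels were 127, 149, 133 and 129.8 CPM with formoterol alone and 228, 223, 216 and 217 CPM in control. The 4 groups did not overlap and ran, from low to high, fatty acids, combination, formoterol, control. Formoterol lowered it without fatty acids (-0.71 ± 0.07, adjusted p = 3.71e-06) and raised it with them (0.59 ± 0.08, adjusted p = 5e-05), an interaction of 1.31 ± 0.11, adjusted p = 9.35e-07.

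DIO2 (ENSG00000211448, chr14:80197527-80387757), the deiodinase that activates thyroid hormone and is a known cAMP target in brown fat of rodents, had 54.8, 65.8, 56.3 and 53.7 CPM with fatty acids and formoterol together and 28.6, 27.6, 31.3 and 27.1 CPM in the fatty acid group. It had 113, 101, 102 and 109.9 CPM in the formoterol group and 106, 104, 108 and 102 CPM in the control group. Every combination library lay above every fatty acid library and below all others, and formoterol and control libraries overlapped. Formoterol's fold was 1.01 ± 0.07, adjusted p = 8.13e-09 with fatty acids and 0.02 ± 0.07, adjusted p = 0.906 without, and the interaction was 0.99 ± 0.10, adjusted p = 1.08e-05. C1QTNF1, a secreted protein of the adiponectin family, moved likewise, with 831 ± 21.2 CPM in the combination, 517 ± 13.9 CPM with fatty acids alone, 1319 ± 72.6 CPM with formoterol alone and 1269 ± 93.5 CPM in control (SD, n = 4 each) and an interaction of 0.63 ± 0.08, adjusted p = 0.000348. GPX3, the plasma glutathione peroxidase, had 5307 ± 179 CPM in the combination, 5531 ± 282 CPM with fatty acids alone, 4517 ± 237 CPM with formoterol alone and 7818 ± 887 CPM in control, and an interaction of 0.73 ± 0.10, adjusted p = 0.00038. DAAM2, a formin of Wnt signalling that overlaps MOCS1 on the other strand, had 1.05 ± 0.12, adjusted p = 0.000143. All 5 were called in each of the 25 alternatives.

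**Figure D5:**
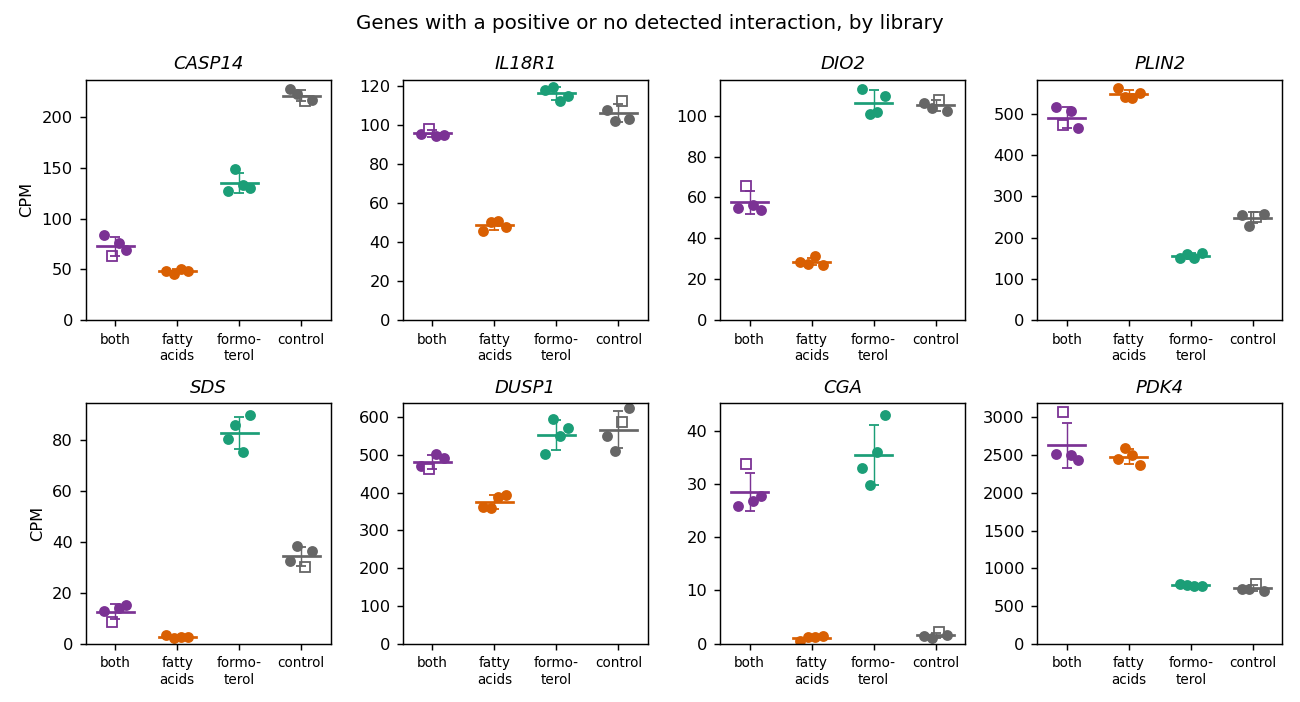
Points are CPM in each library for CASP14, IL18R1, DIO2, PLIN2, SDS, DUSP1, CGA and PDK4, with groups from left to right the combination ("both"), fatty acids, formoterol and control, and bars give the mean and SD of 4 libraries. Open squares are combination replicate 2 and control replicate 3. In the panels of CASP14, IL18R1, DIO2, SDS and DUSP1 the combination lies above fatty acids alone, while in the PDK4 panel the combination and fatty acid groups lie above formoterol and control.

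Glucocorticoid- and FOXO-responsive genes, of interest because every group received a glucocorticoid, held 3 positive calls (DUSP1, PER1 and TSC22D3) and 1 negative (TAT) of 16. TSC22D3, a glucocorticoid-induced leucine zipper protein, fell with formoterol in both settings, by less with fatty acids (-0.34 ± 0.06, adjusted p = 0.0015 with them, -0.71 ± 0.06, adjusted p = 1.6e-07 without), an interaction of 0.38 ± 0.08, adjusted p = 0.0109. Outside that list, DDIT4, a stress-induced inhibitor of mTOR signalling, had 0.52 ± 0.11, adjusted p = 0.0097, and HLF, a clock-controlled transcription factor of liver, -0.59 ± 0.12, adjusted p = 0.00947. TXNIP, an inhibitor of glucose uptake from the same list as TSC22D3, fell with formoterol in both settings, with no interaction detected. Its formoterol fold was -0.71 ± 0.07, adjusted p = 1.28e-06 with fatty acids and -0.76 ± 0.07, adjusted p = 7.94e-07 without, and the interaction was 0.05 ± 0.10, adjusted p = 0.852.

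Of the remaining named genes with negative interactions, ENPP6, a choline phosphodiesterase, had -2.27 ± 0.31, adjusted p = 0.000495, and OXER1, a receptor for oxidized fatty acids, had -1.95 ± 0.43, adjusted p = 0.012. ENPP6 averaged 3.38 ± 1.01 CPM in the combination, 5.35 ± 0.892 CPM with fatty acids alone, 5.38 ± 0.704 CPM with formoterol alone and 1.76 ± 0.344 CPM in control. OXER1 averaged 3.03 ± 1.44 CPM in the combination, 5.18 ± 0.866 CPM with fatty acids alone, 6.71 ± 2.30 CPM with formoterol alone and 2.99 ± 0.500 CPM in control. In both genes the mean of either single treatment stood above the means of the combination and control, and both were called without control replicate 3 (-2.32, adjusted p = 0.00129 and -1.85, adjusted p = 0.0333).

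Several larger positive values belonged to low-level genes in which combination replicates 1 and 2 were the highest libraries. They were MXRA8 (1.68 ± 0.43, adjusted p = 0.0264), FMNL1 (1.76 ± 0.47, adjusted p = 0.0322) and SPACA6 (1.73 ± 0.40, adjusted p = 0.0152), of which MXRA8 and FMNL1 were not called without control replicate 3 (1.55, adjusted p = 0.0691, called in 10 of 16 fits and 1.71, adjusted p = 0.0701, called in 8 of 16 fits). MXRA8, a matrix remodelling protein, had 10.7, 10.8, 3.60 and 6.12 CPM in the combination, 3.34, 4.21, 4.29 and 8.47 CPM with fatty acids alone, 2.46, 2.41, 2.22 and 1.80 CPM with formoterol alone and 3.80, 5.19, 5.88 and 3.69 CPM in control. Combination replicates 3 and 4 thus lay within the range of the fatty acid libraries. PYROXD2 (1.72 ± 0.31, adjusted p = 0.00343) and ENG, the endothelial TGF-beta coreceptor (1.73 ± 0.47, adjusted p = 0.033), came from falls with formoterol in cells without fatty acids, of -1.43 ± 0.22 and -1.66 ± 0.34. ENG overlaps an antisense gene with 1.03 times its counts and was not called without control replicate 3 (1.71, adjusted p = 0.0687, called in 6 of 16 fits). ZDHHC11 (1.86 ± 0.39, adjusted p = 0.00873) overlaps BRD9, which had 7.88 times its counts, so its level is uncertain.

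Several lists held few or no called genes. The 13 mitochondrially encoded respiratory chain genes and 23 interferon response genes held 0 edgeR calls, with 1 and 7 at an unadjusted p under 0.05, 0 and 1 called by DESeq2 and 0 and 0 by limma voom. Activins and growth differentiation factors held 0 edgeR calls of 11, with 5 at an unadjusted p under 0.05, 1 called by DESeq2 and 0 by limma voom. Further, 1 of 51 nuclear-encoded respiratory chain genes was called, NDUFA5 (-0.40 ± 0.09, adjusted p = 0.0172). Of 21 unfolded protein response genes, 3 chaperones and degradation factors were negative (SEL1L -0.31 ± 0.09, called in 4 of 16 fits, CANX -0.28 ± 0.08, called in 5 of 16 fits, and HSP90B1 -0.28 ± 0.08, called in 7 of 16 fits); 0 were called without control replicate 3 and 5 without combination replicate 2. Of 18 NRF2 target genes, 3 were negative, among them the glutathione synthesis enzyme GCLC (-0.30 ± 0.08, adjusted p = 0.0244, called in 13 of 16 fits) and the reductase AKR1C2 (-0.50 ± 0.14, adjusted p = 0.0446, called in 5 of 16 fits), and 0 were called without control replicate 3.

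Which genes were called near the threshold depended on combination replicate 2. With all 16 libraries 128 genes were called that did not pass without it, 63 positive and 65 negative; the 4 largest of each sign among protein-coding genes were CRACR2B, SLC16A8, COL11A2 and ACCS (positive) and PHYHIPL, LIPC, EGFL7 and TMCC3 (negative). LIPC was called in 3 of the 16 fits that left out 1 library, SLC16A8 in 5 and the other 6 in 4. CRACR2B, a regulator of calcium entry, had 3.27, 3.90, 0.858 and 1.84 CPM in the combination and 1.49, 0.993, 1.69 and 2.38 CPM with fatty acids alone, with an interaction of 2.04 ± 0.60, adjusted p = 0.0477 that became 1.73 ± 0.57, adjusted p = 0.081. Conversely, 154 genes were called only without it, 36 positive and 118 negative. The 4 largest of each sign were CYP19A1, FBXO24, MT1F and SERPINA3 (positive) and ARG1, C8B, ITIH1 and ANXA10 (negative).

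CYP19A1 (ENSG00000137869, chr15:51208057-51338610), aromatase, which makes oestrogens and has cAMP-responsive promoters, was called without combination replicate 2 and not in the main fit. Its call also depended on the processing. It was called in 6 of the 25 alternatives, among them scaling of all 16 libraries by total counts (edgeR adjusted p = 0.0193). It had 21.2, 6.67, 21.7 and 19.5 CPM in the combination, 8.79, 8.15, 9.09 and 7.53 CPM with fatty acids alone, 30.2, 33.1, 25.9 and 30.2 CPM with formoterol alone and 32.7, 36.5, 22.4 and 29.3 CPM in control. Combination replicate 2 lay below the fatty acid libraries and the other 3 above them, and the interaction was 1.06 ± 0.32, adjusted p = 0.0566 with all libraries and 1.33 ± 0.17, adjusted p = 1.92e-05 without it. ARG1, the last enzyme of the urea cycle, had -1.59 ± 0.47, adjusted p = 0.0507 with all libraries and -1.24 ± 0.25, adjusted p = 0.002 without, and its reads overlap MED23, which had 7.51 times its counts. SERPINA1, alpha1-antitrypsin, also passed without the library and not in the main fit (-0.60 ± 0.09, adjusted p = 0.000164, against -0.83 ± 0.25, adjusted p = 0.0558). SERPINA1 was called in 3 of the 16 fits that left out 1 library and in 9 of the 25 alternatives. Scaling all 16 libraries by total counts was among them (edgeR adjusted p = 0.048).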

How the data were processed

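RNA with poly(A) tails from 16 HepaRG samples was sequenced, per the labels' protocols. The deposited values are read counts per gene made by the authors, without normalization. Tools listed in the submitters' processing notes are HISAT2 2.0.5 and DESeq2, and the build listed there is mm39, of mouse. All 58735 gene IDs in the table matched GENCODE 29 on human GRCh38 and 0 were mouse IDs. Coordinates are those of the table, and CPM were computed by edgeR on TMM-scaled library sizes. The sources used here do not say how reads of overlapping genes were assigned or whether strand was used, and 54 of the 87 named genes overlap another gene.

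From these counts, genes passing edgeR's filterByExpr (18121, holding 99.94% of counts) were scaled by TMM and fitted with 4 group means using edgeR 4.0.16 in R 4.3.3. The interaction and the 4 simple effects were tested with the quasi-likelihood test and Benjamini-Hochberg adjustment at 0.05, and log2 CPM used a prior count of 2. Alternatives were DESeq2 size factors, total counts, no filter beyond 1 count, at least 1 CPM in 4 libraries, DESeq2 1.42.0, limma 3.58.1 voom with sample quality weights, a replicate block, protein-coding genes only, and each library left out.

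The gene lists (33, with 587 distinct genes tested) and the members described were chosen with earlier results of these data known. Genes named by rule were protein-coding, reached a mean of 2 CPM in 1 group, and were the 8 largest interactions of each sign called with and without combination replicate 2, the 4 largest of each sign called in only 1 of these fits, up to 2 genes per list with the smallest p, and 10 genes fixed by name (PPARGC1A, NR4A1, NR4A3, CGA, SDS, CPS1, PDK4, ANGPTL4, PLIN2 and PCK1). Other list members and genes said to be so were named after their values were seen. RefSeq promoters matched 11226 of 13886 protein-coding genes tested. A few list members and genes named by the rule are not reported here.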

Additional observations from a re-analysis of the deposited data

Results flagged for a closer look

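Single libraries that lay far from the other 3 of their group were sought in 144 groups of 4 values, by dividing the gap to the nearest library by the range of the group. The ratio passed Dixon's 95% critical value in 18 groups. Chance gives about 1 in 20 for unselected, independent groups. These genes and lists were chosen with earlier results known and some share members, so that rate is no valid benchmark here. Combination replicate 2 accounted for 11 of the 18. It was the low library for ALB (0.876), CYP2E1 (0.882) and HMGCS1 (0.846) and the high one for PDK4 (0.882). In the mean levels of gene groups it was low for hepatocyte markers (0.904), drug metabolism (0.938), cholesterol synthesis (0.881), bile acid genes (0.866), fatty acid oxidation (0.964) and acute phase proteins (0.903), and high for proliferation (0.911).

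Control replicate 3 was the low library for APOA1 (0.83) and fatty acid oxidation (0.891) and the high one for proliferation (0.857). Fatty acid replicate 2 was low for drug metabolism (0.939) and bile acid genes (0.856). Formoterol replicate 4 was high for APOA1 (0.945), and combination replicate 1 stood apart for PPARGC1A (0.851).

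Of the 87 genes named by rule, 64 passed edgeR's quasi-likelihood test for the interaction with all 16 libraries. The rule picked most genes by their calls, so this number was largely set in advance. Over all genes tested 5.50% were called. The log2 interactions of 62 of the 64 follow by role. Where a gene was not called in 2 or more of the 16 fits that left out 1 library, the number of fits in which it was called stands beside the value. Among plasma proteins and lipid carriers they were APOA2 (-2.42), AHSG (-2.15, called in 5 of 16), APOE (-1.47), APOA1 (-1.46), RBP4 (-1.3), FGB (-0.767, called in 12 of 16) and LIPC (-0.963, called in 3 of 16). Enzymes of bile acid, drug and steroid metabolism gave CYP7A1 (-2.63), CYP3A4 (-1.65), CYP2E1 (-1.28, called in 6 of 16), BAAT (-1.26), AKR1C2 (-0.498, called in 5 of 16), GCLC (-0.298, called in 13 of 16) and HSD17B11 (-0.716). In fatty acid, cholesterol and ketone metabolism the values were HMGCS1 (-1.18), INSIG1 (-0.943), EHHADH (-0.909), SCD (-1.41), THRSP (-1.92), G0S2 (-1.23) and PLIN2 (0.511). Genes of amino acid and glucose metabolism had OTC (-1.98), HPD (-1.04), CPS1 (-0.682), SDS (0.93), G6PC (-1.78), PCK2 (-0.811), SLC2A2 (-1.34) and SLC2A1 (0.407, called in 12 of 16). Among cAMP, adrenergic and glucocorticoid genes they were PPP1R1A (-2.07), RAPGEF4 (-1.26, called in 5 of 16), ADRA1A (0.623), DUSP1 (0.391), BTG2 (0.655), PER1 (0.517, called in 7 of 16) and TSC22D3 (0.377). Receptors, chemokines and their targets had CCL16 (-2.36), CX3CL1 (-1.23), OXER1 (-1.95), IL18R1 (0.846), IL1RL1 (0.556), IL21R (1.79), CCR7 (1.96) and TNFAIP2 (0.604, called in 9 of 16). For stress, clock and respiratory genes the values were DDIT4 (0.515), BNIP3 (-0.487), HLF (-0.589) and NDUFA5 (-0.402). The remaining negative genes were ENPP6 (-2.27), PHYHIPL (-1.17, called in 4 of 16), EGFL7 (-0.9, called in 4 of 16) and TMCC3 (-0.862, called in 4 of 16). The remaining positive genes were ACCS (1.41, called in 4 of 16), COL11A2 (1.56, called in 4 of 16), MXRA8 (1.68, called in 10 of 16), PYROXD2 (1.72), SPACA6 (1.73), ENG (1.73, called in 6 of 16), FMNL1 (1.76, called in 8 of 16), SLC16A8 (1.83, called in 5 of 16), ZDHHC11 (1.86) and CRACR2B (2.04, called in 4 of 16). Of the 64, 39 were called in every fit that left out 1 library and 38 in all 25 alternatives, and 25 were not called without control replicate 3.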

How the results depend on the processing

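Across 25 alternatives the 87 named genes gave 2175 values. Of these, 1815 kept their direction and side of the threshold, 237 lost the call, 115 gained one and 8 changed sign. The sign changes were in 2 genes without a called interaction: CGA (-0.046 without control replicate 3, -0.048 without fatty acid replicate 1, and -0.12 without control replicate 3 and combination replicate 2) and PDK4 (-0.056 with limma voom, -0.024 without control replicate 3, -0.0091 without fatty acid replicate 4, -0.070 without combination replicate 2 and -0.096 without both libraries). With 1 library left out, the interaction of CGA ran from -0.048 to 0.32 and that of PDK4 from -0.070 to 0.047. Leaving out 1 library at a time gave 444 to 1325 interactions, 170 to 558 positive and 274 to 767 negative. The same fits gave 302 to 590 genes for formoterol with fatty acids, 1002 to 2588 for formoterol alone, 2479 to 3399 for fatty acids added to formoterol and 2276 to 3587 for fatty acids alone. With fewer samples the fits have less power, but the further causes of these ranges were not tested. Without a filter on low counts 1523 interactions were called, 646 of them positive, and 880 genes for formoterol with fatty acids. DESeq2 called 629 positive interactions, and 795 genes for formoterol with fatty acids, with no adjusted p for 2460 genes. With limma voom and sample quality weights 831 genes passed for formoterol with fatty acids. Scaling by total counts gave 1030 positive and 351 negative interactions. The alternative without control replicate 3 and combination replicate 2 (759 calls) was chosen after seeing the data. With the replicate number as a block 1089 genes were called, 419 positive and 670 negative, 933 of them shared with the fit without it. Over 24 pairs of same-numbered libraries the deviations from the group means correlated at -0.113 to 0.0825, and 0 pairs exceeded 0.1. Their median was 0.00356, against -0.00155 for the other pairs. Of the 16 libraries, 8 correlated best with their own number, of 4 numbers. These values do not settle whether the numbers pair the libraries. Depth limits low genes: several of those named had means of 1 to 5 CPM, where counts of single libraries spread widely.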

Other observations

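Whole gene families, some of whose members stand in the lists above, were counted in the same fit, beside 2.41% of protein-coding genes called positive and 4.31% called negative. Of 15 measured UDP-glucuronosyltransferases, which share exons and reads among them, 6 (40.0%) were negative and 0 positive. Of 23 alcohol and aldehyde dehydrogenases, 7 (30.4%) were negative and 1 positive, and of 15 complement components, made largely by hepatocytes, 4 (26.7%) were negative and 0 positive. Among 46 cytochrome P450 genes, 10 (21.7%) were negative and 0 positive. Collagens went the other way in count, with 5 positive and 1 negative of 29, and 2 of 20 integrins were positive. Solute carriers, a large family, had 12 positive and 19 negative of 282.

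Of 433 zinc finger genes, 1 was positive and 2 were negative. Among non-coding genes, 14 of 1121 annotated antisense genes were positive and 3 negative, and 11 of 1159 long intergenic RNAs were positive and 3 negative. The sources used here do not say whether the counting used the strand, so reads of antisense genes and their partners cannot be told apart. These families were chosen after the values had been seen, and no test was made on them.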
